A study of Homo sapiens with 4 samples.

Results

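Ribosomes are assembled in the nucleolus, and the genes described here encode proteins of that assembly line and of RNA polymerase I, the enzyme that transcribes the ribosomal DNA. The group was chosen by name, as 54 gene symbols with roles in polymerase I transcription, small nucleolar ribonucleoproteins (snoRNPs) and processing of the small and large ribosomal subunits, and a gene was kept if its CPM (counts scaled to library size) exceeded 1 in 2 or more libraries. All 54 genes passed, out of 12559 genes that passed in the whole dataset. The RNA came from hTERT RPE-1, a wild-type, telomerase-immortalized human cell line of the retinal pigment epithelium, arrested by 48 h in medium with 0.1% serum and then exposed to 200 μM merbarone, a catalytic inhibitor of type II DNA topoisomerases (TOP2). Both groups had the drug, 2 libraries for 4 h and 2 for 8 h, so each difference is between later times of exposure and none is against untreated cells. Hours of drug and hours in low serum cannot be told apart in this design. The libraries measure polyadenylated RNA of protein genes and not ribosomal RNA, so they do not measure polymerase I activity or ribosome output.

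In the known pathway, polymerase I starts on the ribosomal DNA with the help of the HMG-box protein UBTF, the selectivity factor SL1 and the bridging factor RRN3. The precursor transcript is modified by box C/D snoRNPs, which methylate it, and box H/ACA snoRNPs, which convert uridine to pseudouridine, and it is cut and folded by the small subunit processome and by large subunit assembly factors. Many of these genes are background targets of MYC, and dividing cells express them more than resting cells.

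Totals ranged from 8064450 to 10324697 counts per library, and the chi-square statistic per degree of freedom between replicates was 2.67 at 4 h and 3.84 at 8 h, so replicates were not copies. Of 12 retinal pigment epithelium markers, 4 passed the CPM filter (MITF at 75.4 to 92.4 CPM, OTX2, SERPINF1 and PMEL), TYR and RGR were at 0 in every library, and RPE65, RLBP1 and BEST1, which define the mature tissue, stayed below 1 CPM in every library. Among 7 markers of epithelial and mesenchymal cell lines, 5 passed the CPM filter, and none of the 4 immune and blood or 3 endothelial markers did, which were at 0 to 0.75 CPM. The study calls the replicates biological, without saying how the cultures were kept apart, so p-values measure the spread between these libraries, which may be partly technical.

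The nucleolar genes did not shift as a block between 4 h and 8 h. With edgeR's quasi-likelihood test and a Benjamini-Hochberg adjusted p below 0.05 over all genes, 13 of the 54 were higher at 8 h (24.1%) and 10 were lower (18.5%), beside 19.9% higher and 18.9% lower of all 12559 genes tested. In either direction this was 42.6% of the group and 38.8% of all genes, and the other 31 did not pass, which does not show that they were unchanged. The median log2 fold change (log2FC, 8 h against 4 h) was 0.01 over the 54 genes and 0.00 over all genes. The summed CPM of the 54 genes went from 3379 and 3349 at 4 h to 3444 and 3333 at 8 h, so the times overlapped. Within the group, values ran from a log2FC of −0.75 to 1.06, and the interquartile range was 0.40, against 0.57 over all genes. WDR43 alone was a differentially expressed gene (DEG) by the thresholds of the study, an adjusted p below 0.05 and an absolute log2FC above 1, beside 1.45% of all genes higher and 3.88% lower (5.33% in either direction). The 8 h libraries lay above both 4 h libraries for 18 genes and below both for 16, where 34.8% of all genes lay above and 34.9% below.

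**Figure D1:**
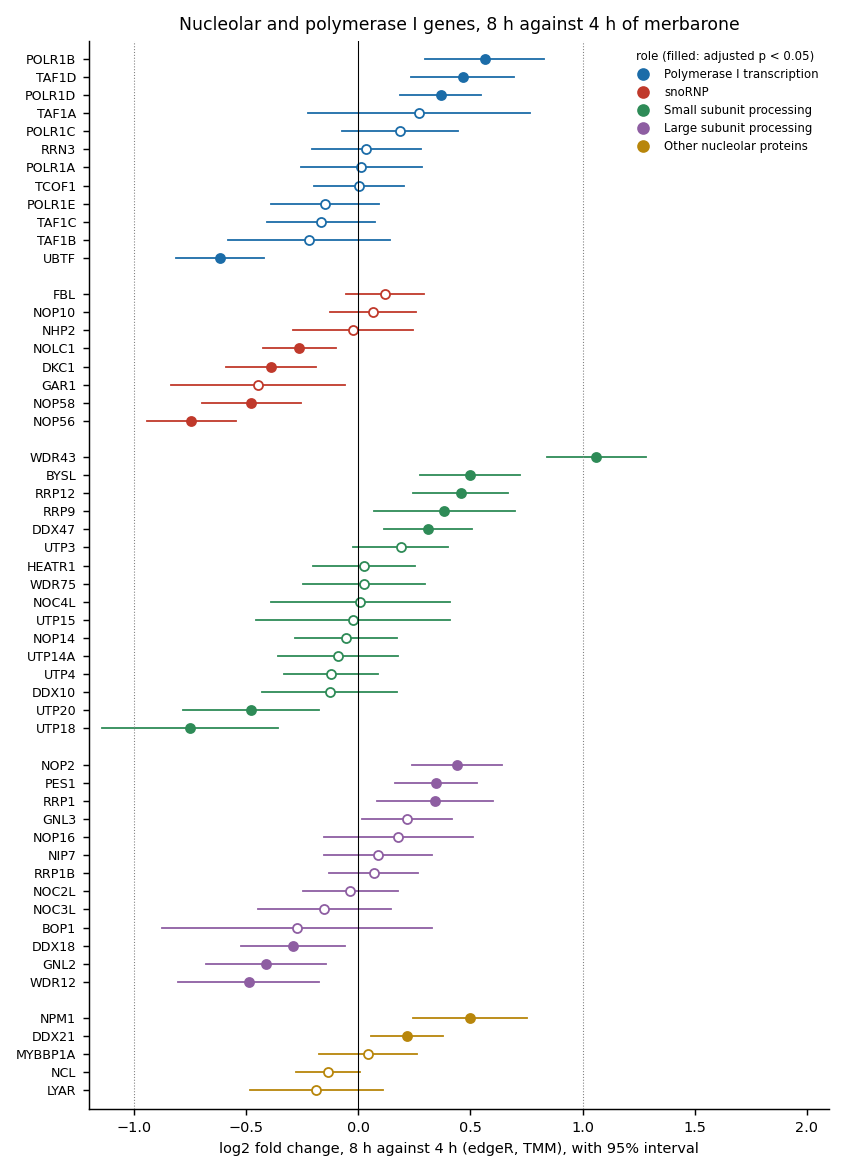
Log2 fold change of the 54 genes, 8 h against 4 h (x axis, edgeR with TMM scaling; bars are 95% intervals), in order of value within each role (y axis, gene symbols; colours are roles, filled points have an adjusted p below 0.05). Points lie on both sides of 0 in every role, and no filled point of the snoRNP role lies above 0.

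Part of the calls was lost when 1 library was left out, in fits with 1 residual degree of freedom per gene. Called genes over the whole dataset also changed in number in these fits, and the changes were not compared. All 23 called genes kept their direction in each of 12 alternative fits, and 9 passed in each of them, namely POLR1B, UBTF, DKC1, NOP58, NOP56, WDR43, BYSL, RRP12 and NOP2. The same count over all genes is not given here. Of the genes that did not pass, those near 0 changed sign in some fits, so their values carry no direction. Among them were POLR1A, TCOF1, NHP2, NOP10, HEATR1, WDR75, UTP15, NOC4L, RRP1B and MYBBP1A. With scaling by library size alone, which moved the median of all genes from 0.00 to −0.11, 9 genes were higher and 12 lower, and over all genes 1699 were higher and 3289 lower, against 2500 and 2368 with TMM.

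To place the members in the genome, the 250 bases before the transcription start are shown for the genes with the largest rises and the largest falls among the genes described in full below, WDR43 and POLR1B for the rises and UTP18 and NOP56 for the falls. They were chosen after the values were seen. The sequences are RefSeq promoters on GRCh38.p14, with coordinates on that build, and 46 of the 54 genes had one. Where a gene had several promoters, as POLR1B and 9 other members did, the first listed was used. Capitals mark matches, on either strand, to CACGTG (the E-box bound by MYC and its partners), ACTTCCGG (an ETS-type site), the NRF1 palindrome, the CGCG palindrome, CCAAT or TATAAA.
WDR43, chr2:28894417-28894666, plus strand: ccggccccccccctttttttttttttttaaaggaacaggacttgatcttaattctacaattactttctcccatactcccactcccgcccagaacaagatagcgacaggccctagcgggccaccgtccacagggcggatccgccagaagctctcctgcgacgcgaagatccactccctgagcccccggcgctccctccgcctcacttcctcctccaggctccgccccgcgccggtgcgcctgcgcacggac
POLR1B, chr2:112541786-112542035, plus strand: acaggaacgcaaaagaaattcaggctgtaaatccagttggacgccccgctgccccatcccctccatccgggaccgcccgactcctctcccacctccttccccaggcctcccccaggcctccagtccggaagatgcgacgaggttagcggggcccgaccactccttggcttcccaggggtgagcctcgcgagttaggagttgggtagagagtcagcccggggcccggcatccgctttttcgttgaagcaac
UTP18, chr17:51260296-51260545, plus strand: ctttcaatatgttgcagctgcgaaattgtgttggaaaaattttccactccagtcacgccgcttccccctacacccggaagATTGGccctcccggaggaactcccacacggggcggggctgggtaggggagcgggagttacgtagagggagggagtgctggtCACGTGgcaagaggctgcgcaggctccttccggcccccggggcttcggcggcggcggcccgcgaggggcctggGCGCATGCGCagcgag
NOP56, chr20:2652382-2652631, plus strand: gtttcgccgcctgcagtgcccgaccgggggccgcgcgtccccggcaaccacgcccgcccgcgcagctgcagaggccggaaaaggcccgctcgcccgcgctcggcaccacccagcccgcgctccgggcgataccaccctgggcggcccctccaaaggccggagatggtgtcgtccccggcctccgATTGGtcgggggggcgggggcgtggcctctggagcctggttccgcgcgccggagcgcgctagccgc
The windows of WDR43 and POLR1B held none of these letters. That of UTP18 held CACGTG starting 89 bases before the start, the NRF1 palindrome 16 bases before it, and ATTGG, the reverse complement of CCAAT, 170 bases before it, and these matches did not overlap. That of NOP56 held ATTGG 66 bases before the start.

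CACGTG was found in 5 of the 46 promoters (10.9%), in UTP4, UTP14A, UTP18, UTP20 and NOP10, beside 6.49% of 27305 promoters and 8.97% of the 10183 that belong to genes tested. ACTTCCGG was found in 7 (15.2%, beside 3.64% of all promoters and 7.42% of those of genes tested) and the NRF1 palindrome in 4 (8.7%, beside 1.13% and 2.04%). CCAAT was found in 17 (37%, beside 33% and 35.3%), TATAAA in 1 (2.17%, beside 11.1% and 4.85%) and the CGCG palindrome in 1 (2.17%, beside 0.41% and 0.845%). A match says only that these letters are in this window.

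Of the 12 polymerase I genes, 3 rose (25%), 1 fell (8.33%) and 8 did not pass, with a median log2FC of 0.03. Over all genes, 19.9% rose and 18.9% fell. UBTF, which binds the ribosomal DNA along its promoter and transcribed part, fell. POLR1B, the second largest subunit, POLR1D, a subunit shared with polymerase III, and TAF1D, a part of SL1, rose. UBTF (chromosome 17, 42282401 to 42298994, minus strand, hg19) had 90.3 and 97.4 CPM at 4 h and 57.8 and 65.0 at 8 h. Both 8 h values lay far below both 4 h values, a mean of 93.9 ± 5.00 against 61.4 ± 5.12 (SD, n = 2 each), with a log2FC of −0.62 and a standard error of 0.09 (edgeR adjusted p = 4.6e-05). POLR1B (chromosome 2, 113299492 to 113337395, plus strand) had 22.8 and 22.2 CPM at 4 h and 31.6 and 35.2 at 8 h, without overlap (log2FC 0.57, standard error 0.13, edgeR adjusted p = 0.00155).

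POLR1A, the largest subunit and partner of POLR1B in the active centre, had 29.1 and 34.6 CPM at 4 h and 34.4 and 29.7 at 8 h, so the times overlapped. Its log2FC was 0.01 (95% interval −0.25 to 0.28, edgeR adjusted p = 0.942), which leaves room for a change of that size in either direction. RRN3, which joins polymerase I to SL1 at the promoter, had 35.1 and 34.5 CPM at 4 h and 33.4 and 38.2 at 8 h, also with overlap (log2FC 0.04, 95% interval −0.21 to 0.28, edgeR adjusted p = 0.828). The sign of both flipped with library size alone. TAF1D (chromosome 11, 93463114 to 93517557, minus strand) rose from 54.2 and 48.1 CPM to 77.8 and 63.1 (log2FC 0.47, standard error 0.11, edgeR adjusted p = 0.0023), and its adjusted p was 0.0591 without replicate 2 at 4 h. Its exons overlap those of other genes on the opposite strand, and the use of strand in counting is not given in the sources used here. Of the other SL1 subunits, TAF1A had a log2FC of 0.27, TAF1B of −0.22 and TAF1C of −0.17, and none passed. POLR1C, shared with polymerase III like POLR1D, had a log2FC of 0.19 (edgeR adjusted p = 0.245), against 0.37 (edgeR adjusted p = 0.0023) for POLR1D, whose adjusted p was 0.0504 without replicate 1 at 4 h. The subunit POLR1E had −0.15 (edgeR adjusted p = 0.334). TCOF1, the treacle protein, which binds UBTF and polymerase I, had 0.01 (95% interval −0.19 to 0.21, edgeR adjusted p = 0.969), close to 0.

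**Figure D2:**
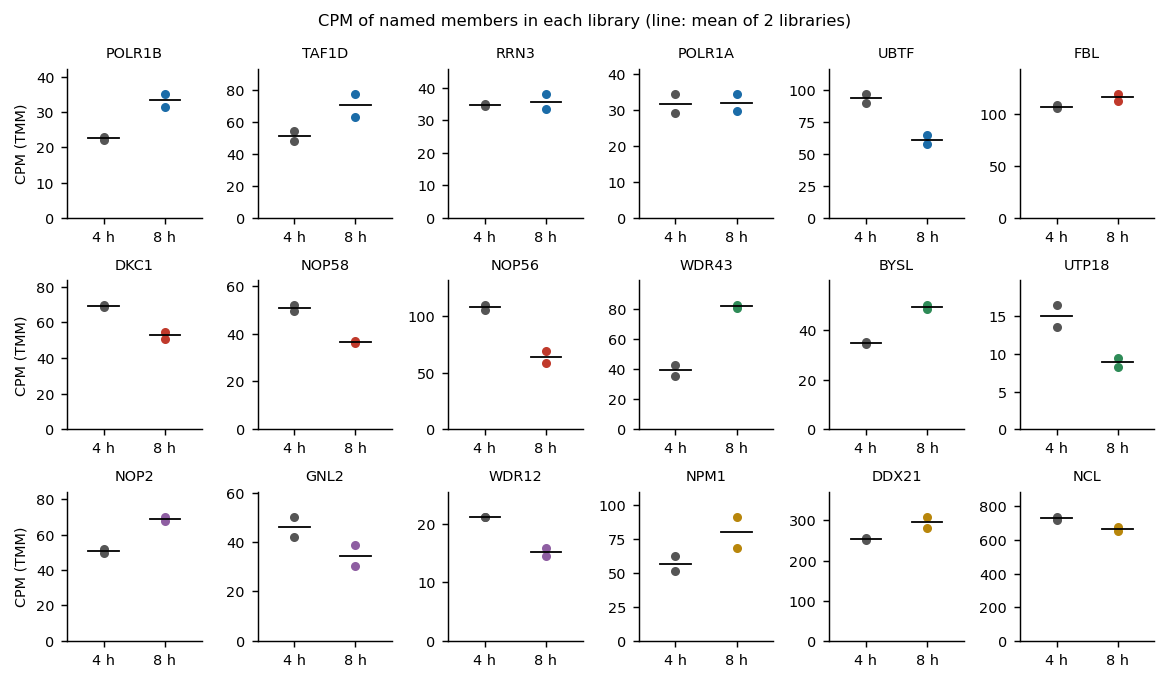
CPM with TMM scaling (y axis, from 0) in each library of 4 h and 8 h (x axis) for the 18 genes described in full; points are libraries, lines are means of 2 libraries, and colours at 8 h are roles as in the plot of fold changes. WDR43, BYSL and NOP2 lie higher at 8 h and UBTF, NOP56, NOP58 and DKC1 lower without overlap, while POLR1A and RRN3 overlap.

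All called genes of the snoRNP role were lower. Of its 8 genes, 4 fell (50%), 0 rose and 4 did not pass at an adjusted p of 0.05 in edgeR. In limma-voom and DESeq2, 0 were called higher as well. RRP9, a U3 snoRNP protein counted with the small subunit genes, was called higher (log2FC 0.38, edgeR adjusted p = 0.0488). At an unadjusted p under 0.05, 5 of the 8 passed and all 5 were lower, beside 5936 of all 12559 genes in either direction. The median log2FC was −0.32, and it lay between −0.43 and −0.29 in every alternative. Their summed CPM went from 660.1 and 651.0 at 4 h to 572.5 and 543.2 at 8 h, without overlap. Of all genes, 18.9% fell and 19.9% rose, and with 8 genes no test of the group was made.

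The genes that fell were NOP56 and NOP58 of the box C/D class, DKC1 of the box H/ACA class and the chaperone NOLC1. NOP56 (chromosome 20, 2633239 to 2639039, plus strand), which with NOP58 forms the core of box C/D snoRNPs, had 110 and 105 CPM at 4 h and 69.3 and 58.7 at 8 h. This was the largest fall in the role (mean 107.4 ± 2.95 against 64.0 ± 7.51, SD, n = 2 each), with a log2FC of −0.74 and a standard error of 0.10 (edgeR adjusted p = 6.02e-06). NOP58 (chromosome 2, 203130459 to 203168384, plus strand) had 51.9 and 49.5 CPM at 4 h and 35.9 and 37.0 at 8 h. Its replicates were close and its times were well apart (log2FC −0.48, standard error 0.11, edgeR adjusted p = 0.00146). FBL (chromosome 19, 40325098 to 40337019, minus strand), the methyltransferase of the same particle, had 106 and 108 CPM at 4 h and 120 and 113 at 8 h. The 8 h values were slightly above, and the change did not pass (log2FC 0.12, 95% interval −0.05 to 0.29, edgeR adjusted p = 0.262).

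DKC1 (chromosome X, 153991017 to 154005964, plus strand), the pseudouridine synthase, fell from 68.6 and 69.7 CPM to 54.8 and 50.9 (log2FC −0.39, standard error 0.10, edgeR adjusted p = 0.00344). Its partners did not pass, with log2FC of −0.45 for GAR1 (edgeR adjusted p = 0.0626), −0.02 for NHP2 (edgeR adjusted p = 0.906) and 0.07 for NOP10 (edgeR adjusted p = 0.593). NOLC1, a nucleolar chaperone of snoRNPs, fell with a log2FC of −0.26 (edgeR adjusted p = 0.0119), a call lost without replicate 1 at 4 h (adjusted p = 0.13). Within 6 of the 54 genes lie 9 listed snoRNA genes on the same strand, of which SNORA36A, SNORA56, SNORD110 and SNORD20 overlap annotated exons of their host. They had 0 to 18 counts in a library, too few to compare the times. SNORD110 within NOP56 had the most (11 and 18 counts, then 2 and 1), SNORA56 within DKC1 went from 9 and 7 counts to 9 and 12, and SNORD53 within WDR43 from 0 and 2 to 8 and 0.

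Of 16 small subunit genes, 5 rose (31.2%), 2 fell (12.5%) and 9 did not pass, with a median log2FC of 0.02. Over all genes, 19.9% rose and 18.9% fell. WDR43 (chromosome 2, 29117533 to 29171085, plus strand), a member of the early UTP-A complex that binds the nascent ribosomal transcript, had 43.0 and 35.5 CPM at 4 h and 81.1 and 82.9 at 8 h. Its level was thus 2.09 times as high at 8 h, at percentile 98.7 of the log2FC of all genes (mean 39.3 ± 5.30 against 82.0 ± 1.25, SD, n = 2 each), with a log2FC of 1.06 and a standard error of 0.11 (edgeR adjusted p = 2.6e-07). The log2FC fell short of 1 without replicate 2 at 4 h (0.93) and with library size alone (0.96), and its adjusted p was at most 7.5e-05 in each alternative. The other UTP-A proteins among the 54 had log2FC near 0, namely HEATR1 (0.03), WDR75 (0.02), UTP15 (−0.02) and UTP4 (−0.12), and none passed. A further UTP-A protein outside the 54, NOL11, fell, with values given below.

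BYSL (chromosome 6, 41889237 to 41900784, plus strand), a factor of late small subunit maturation, rose from 34.2 and 35.2 CPM to 49.9 and 48.3, with replicates close together (log2FC 0.50, standard error 0.11, edgeR adjusted p = 0.00103). RRP12, also of late maturation, rose with a log2FC of 0.46 (edgeR adjusted p = 0.00139), RRP9, a U3 snoRNP protein, with 0.38 (edgeR adjusted p = 0.0488) and the helicase DDX47 with 0.31 (edgeR adjusted p = 0.013). RRP9 passed in 5 of 12 alternatives, and lost its call with library size alone, DESeq2, a CPM above 2 and when any library was left out (adjusted p up to 0.347). DDX47 passed in 6 of 12, and lost its call with library size alone, DESeq2, the abundance trend removed and without either 4 h library or replicate 1 at 8 h (adjusted p up to 0.12), and exons of DDX47 overlap those of APOLD1 on the same strand, a gene that went from 936 and 808 counts to 374 and 285. UTP18 (chromosome 17, 49337907 to 49375297, plus strand), a U3-associated processome protein, fell from 13.6 and 16.4 CPM to 9.49 and 8.29 (log2FC −0.75, standard error 0.19, edgeR adjusted p = 0.00368). It rested on 64 to 174 counts per library, and its adjusted p was 0.0786 without replicate 2 at 4 h. UTP20, a large scaffold of the processome, fell with a log2FC of −0.48 (edgeR adjusted p = 0.0135), a call lost with DESeq2 and without either 4 h library or replicate 1 at 8 h (adjusted p up to 0.0853). The other genes that did not pass were UTP3 (log2FC 0.19), NOC4L (0.01), NOP14 (−0.05), UTP14A (−0.09) and DDX10 (−0.13).

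Of 13 large subunit genes, 3 rose (23.1%), 3 fell (23.1%) and 7 did not pass, with a median log2FC of 0.07. Over all genes, 19.9% rose and 18.9% fell. NOP2 (chromosome 12, 6666029 to 6677857, minus strand), a methyltransferase of the large subunit rRNA, had 51.8 and 49.98 CPM at 4 h and 68.0 and 70.3 at 8 h, with no overlap (log2FC 0.44, standard error 0.10, edgeR adjusted p = 0.00118). WDR12 (chromosome 2, 203738984 to 203879521, minus strand) fell from 21.2 CPM in both 4 h libraries to 14.5 and 15.8 (log2FC −0.49, standard error 0.15, edgeR adjusted p = 0.0149). GNL2 (chromosome 1, 38032417 to 38061538, minus strand), a GTPase of pre-60S particles, fell from 42.0 and 50.3 CPM to 38.7 and 30.3, and the times came close to each other (log2FC −0.41, standard error 0.13, edgeR adjusted p = 0.0156). Both lost their calls with DESeq2 and without single libraries, and their exons overlap genes on the opposite strand. PES1, the partner of WDR12 in the PeBoW complex, rose with a log2FC of 0.35 (edgeR adjusted p = 0.00363, and 0.0571 without replicate 2 at 4 h), and BOP1, the third partner, had −0.27 (edgeR adjusted p = 0.479) at only 3.93 to 6.99 CPM. RRP1 rose with 0.34 (edgeR adjusted p = 0.0337), a call lost with library size alone, with DESeq2, and without either 4 h library or replicate 2 at 8 h (adjusted p up to 0.207), while its paralog RRP1B had 0.07 (edgeR adjusted p = 0.594), and the difference of the paralogs was not tested. The helicase DDX18 fell with −0.29 (edgeR adjusted p = 0.0433), a call lost with limma-voom, with DESeq2, without replicate 1 at 4 h and without replicate 2 at 8 h, where values reached −0.15 and adjusted p 0.466. GNL3, NOP16, NIP7, NOC2L and NOC3L did not pass, with log2FC from −0.15 to 0.22.

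Of 5 other nucleolar proteins, 2 rose and 3 did not pass, and 0 fell in edgeR, limma-voom or DESeq2. Of all genes, 19.9% rose and 18.9% fell in edgeR. At an unadjusted p under 0.05, 2 of the 5 passed, beside 5936 of all 12559 genes. NPM1 (chromosome 5, 170814120 to 170838814, plus strand), the abundant nucleolar chaperone nucleophosmin, had 62.2 and 51.5 CPM at 4 h and 91.6 and 68.5 at 8 h. The replicates were far apart at both times (log2FC 0.50, standard error 0.12, edgeR adjusted p = 0.00296), and the log2FC was 0.27 without replicate 1 at 8 h (adjusted p = 0.0548) and 0.37 without replicate 2 at 4 h (adjusted p = 0.085). NPM1 has many processed pseudogenes, and reads with more than 1 genome position were removed, so its counts are a part of its reads. DDX21 (chromosome 10, 70715891 to 70744824, plus strand), a helicase of rRNA synthesis and processing, rose from 257 and 251 CPM to 309 and 280 (log2FC 0.22, standard error 0.08, edgeR adjusted p = 0.0313), and its adjusted p was 0.429 after removal of the abundance trend. DDX21 passed in 6 of 12 alternatives, and its call was also lost with library size alone, DESeq2, without either 4 h library and without replicate 1 at 8 h. NCL (chromosome 2, 232318242 to 232348352, minus strand), nucleolin, had 720 and 739 CPM at 4 h and 679 and 650 at 8 h, lower in both 8 h libraries. Its log2FC of −0.13 did not pass (95% interval −0.28 to 0.01, edgeR adjusted p = 0.131), and it passed as lower with library size alone (log2FC −0.24, adjusted p = 0.00951) and after removal of the abundance trend (log2FC −0.30, adjusted p = 0.0022). LYAR and MYBBP1A, a repressor of polymerase I transcription, did not pass, at −0.19 and 0.04.

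**Figure D3:**
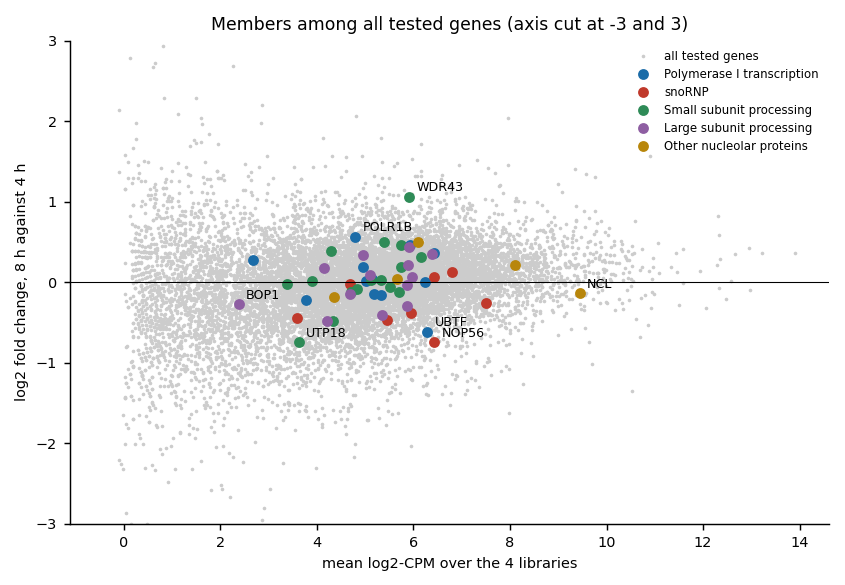
Log2 fold change of all 12559 genes (grey) and of the 54 nucleolar genes (colours are roles) against mean log2-CPM over the 4 libraries, with the y axis ending short of the largest changes of other genes. The coloured points lie within the grey cloud, with WDR43 at its upper edge, and NCL is the most abundant of them.

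Levels between genes were compared per length, as CPM per kilobase of the canonical transcript (GENCODE on GRCh37), which 53 of the 54 genes had. NCL (178), NOP10 (170), POLR1D (124) and FBL (99.4) were highest, and UTP15 (2.02), UTP20 (2.19), WDR12 (2.25) and POLR1A (2.56) were lowest. These levels depend on which transcript is used and on reads lost at splice junctions, since Bowtie aligns without gaps. The interquartile range of the members by abundance lay between a mean log2-CPM of 4.69 and 5.94. The 3193 genes of the dataset in that range had a median log2FC of 0.01, with 20.9% higher and 21.3% lower.

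Partners of a particle or of a step were also read as ratios. A ratio of CPM within a library does not depend on scaling between libraries, and its level depends on transcript length, so only its change between times is described. The pairs were chosen after the values were seen, and with 2 libraries against 2 an exact two-sided permutation test cannot go below a p of 0.333. The NOP56 to FBL ratio went from 1.03 and 0.971 at 4 h to 0.578 and 0.519 at 8 h. The NOP58 to FBL ratio went from 0.491 and 0.456 at 4 h to 0.300 and 0.328 at 8 h, and the DKC1 to NHP2 ratio was 2.70 and 2.66 against 2.11 and 2.06. In the PeBoW complex the WDR12 to PES1 ratio went from 0.285 and 0.294 to 0.156 and 0.169. In the UTP-A complex the WDR43 to HEATR1 ratio went from 1.05 and 0.915 to 1.94 and 2.11. The POLR1B to POLR1A ratio went from 0.785 and 0.642 at 4 h to 0.916 and 1.19 at 8 h. The UBTF to RRN3 ratio went from 2.58 and 2.83 at 4 h to 1.73 and 1.70 at 8 h. The times did not overlap in these 7 pairs, and each had an exact permutation p of 0.333, the smallest possible. Each numerator was a called gene and the pairs were picked by their values, so this adds no support. Of single genes, 69.7% had no overlap of the times. Exons of HEATR1, NHP2, PES1 and WDR12 overlap those of genes on the opposite strand.

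**Figure D4:**
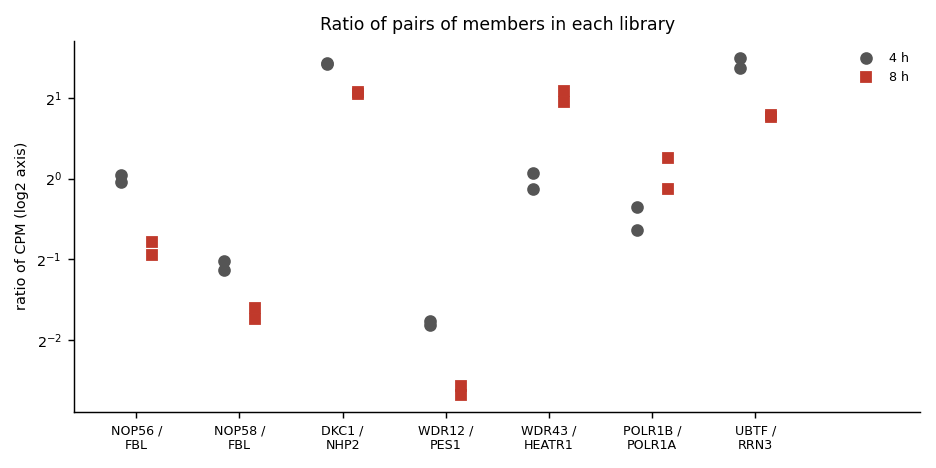
Ratio of CPM of 7 pairs of members (x axis) in each library (y axis, log2 scale), circles for 4 h and squares for 8 h. The ratio is lower at 8 h for NOP56/FBL, NOP58/FBL, DKC1/NHP2, WDR12/PES1 and UBTF/RRN3, and higher for WDR43/HEATR1 and POLR1B/POLR1A.

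Other genes of the pathway were read in the same fit. Their lists were drawn up by role, with earlier results of these data known. Of all 12559 genes, 19.9% were higher and 18.9% lower. Among 11 further polymerase I factors, 3 rose and 0 fell in edgeR, and limma-voom and DESeq2 also gave 0 lower. At an unadjusted p under 0.05, 3 of the 11 passed, beside 5936 of all 12559 genes. BAZ2A, a subunit of the NoRC complex that silences ribosomal DNA, had the largest rise (log2FC 0.88, edgeR adjusted p = 3.64e-07). It had 64.3 and 65.9 CPM at 4 h and 126 and 113 at 8 h. The shared subunits POLR2H (log2FC 0.32, edgeR adjusted p = 0.0227) and POLR2E (log2FC 0.31, edgeR adjusted p = 0.00821) also rose. The subunits POLR1F (log2FC −0.17), POLR1G (−0.22) and POLR1H (0.25) did not pass. Of 41 further small subunit factors, 4 rose and 11 fell (median −0.07), with the largest falls in NOL11 (log2FC −0.66, edgeR adjusted p = 0.000765) and BMS1 (log2FC −0.64, edgeR adjusted p = 0.000701). Of 49 further large subunit factors, 11 rose and 7 fell (median 0.11). Among them NOP53 rose (log2FC 0.95, edgeR adjusted p = 0.000113), with 8 h replicates of 69.7 and 118 CPM, and NOL12 fell (log2FC −1.01, edgeR adjusted p = 0.00233) at 8.70 and 7.37 CPM at 4 h.

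Genes that act beside the snoRNPs were counted in the same way, with no test of the groups. The shares over all genes were 19.9% higher and 18.9% lower. Of 10 snoRNP assembly factors, 5 fell (50%) and 2 rose. SHQ1, the chaperone of DKC1, fell (log2FC −0.55, edgeR adjusted p = 0.0153), and NOPCHAP1, a chaperone that binds NOP58, rose (log2FC 0.92, edgeR adjusted p = 0.000366). Of 17 genes of the RNA exosome and rRNA trimming, 7 fell (41.2%) and 2 rose. The helicase MTREX fell from 48.2 and 47.4 CPM to 23.4 and 26.5 (log2FC −0.94, edgeR adjusted p = 4.42e-06), and the nuclease EXOSC10 from 41.6 and 42.3 to 22.9 and 25.3 (log2FC −0.80, edgeR adjusted p = 3.14e-05).

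Lists outside the nucleolus were read for comparison, and their difference from the nucleolar genes was not tested. Again, 19.9% of all genes rose and 18.9% fell. Of 78 cytosolic ribosomal protein genes tested, 36 rose (46.2%) and 5 fell, with a median log2FC of 0.24. For the nucleolar genes, 24.1% rose and the median was 0.01. The ribosomal protein genes were more abundant, with a median over genes of 150 CPM against 41.1. Whether abundance accounts for part of the difference was not tested. Some of them had few counts, such as RPL7 with 8 to 15 per library. RPL14 rose with a log2FC of 0.91 (edgeR adjusted p = 2.25e-07), and RPS15 with 1.15 (edgeR adjusted p = 0.00173) on 35 to 73 counts. Of 21 polymerase III genes, 4 rose and 2 fell (median −0.08), among them MAF1, the repressor of polymerase III (130.8 and 130.2 CPM against 194 and 201; log2FC 0.60, edgeR adjusted p = 7.48e-06), and GTF3C5 (log2FC −0.66, edgeR adjusted p = 5.67e-05). Of 7 subunits of polymerase II alone, POLR2J rose (log2FC 0.73, edgeR adjusted p = 0.000137) and POLR2B fell (log2FC −0.39, edgeR adjusted p = 0.00126). In the MYC network, 4 of 9 genes tested rose and 2 fell. MNT, an antagonist of MYC, rose from 16.2 and 15.4 CPM to 41.8 and 51.9 (log2FC 1.56, edgeR adjusted p = 5.05e-08), and MXD3 fell (log2FC −0.88, edgeR adjusted p = 0.00278). MYC itself, which was not among the genes to be named and was chosen after its values were seen, had 351 and 349 CPM at 4 h and 303 and 311 at 8 h (log2FC −0.19, edgeR adjusted p = 0.044). Of 8 genes of the ribosomal stress checkpoint, through which free ribosomal proteins bind MDM2 and stabilize p53, 5 rose and 1 fell. The p53 target CDKN1A rose with a log2FC of 0.82 (edgeR adjusted p = 1.21e-08), and NOP53 is in this list as well. HEXIM1 fell (log2FC −0.53, edgeR adjusted p = 0.000313). The ribosomal protein genes RPL5 (log2FC 0.16, edgeR adjusted p = 0.187) and RPL11 (log2FC 0.19, edgeR adjusted p = 0.0515) did not pass.

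**Figure D5:**
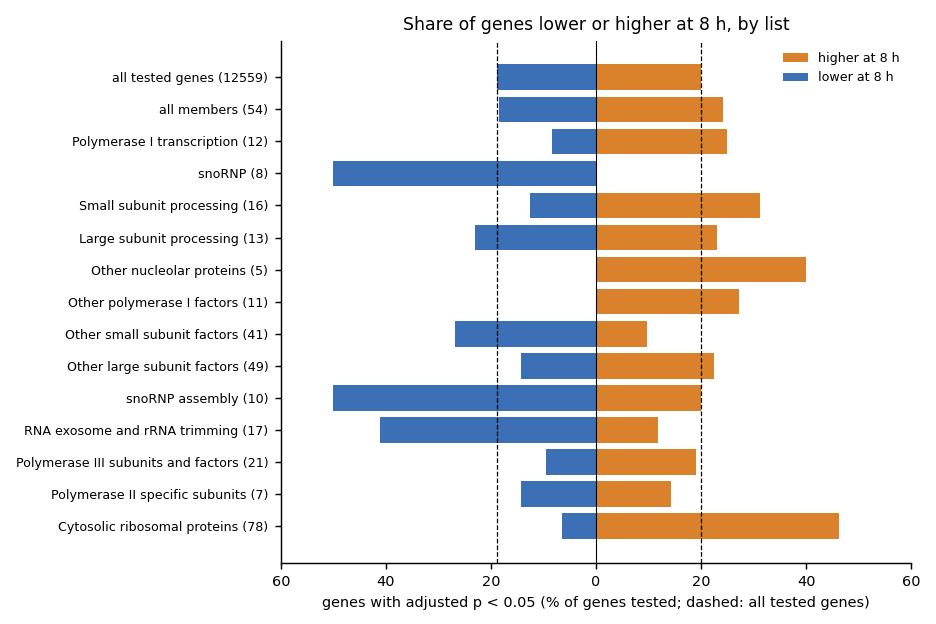
Share of the genes of each list with an adjusted p below 0.05 (x axis, % of genes tested; lower at 8 h to the left in blue, higher to the right in orange), with the number tested after each name; dashed lines are the 18.9% and 19.9% of all genes. The bars of all 54 nucleolar genes end near the dashed lines, the snoRNP bar lies on the lower side alone, and the ribosomal protein bar reaches 46.2% on the higher side.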

How the data were processed

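RNA-Seq libraries from 150 ng of total RNA of 4 samples (2 for each time) had been prepared with a stranded kit for polyadenylated RNA. The authors checked the reads, mapped them to hg19 with Bowtie 1.2.0, kept those with a single genome position, and deposited raw counts per gene, not normalized or filtered. The counting tool and its annotation are not given in the sources used here. Unspliced mapping loses reads across junctions, and single-position mapping loses reads of near-identical copies.

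Of 23459 genes listed, 23308 were given a symbol (RefSeq, GRCh38.p14) and 22209 a position on GRCh37, the assembly of hg19 (GENCODE). Genes that exceeded a CPM of 1 in 2 or more libraries entered the fit, scaled by TMM and tested with edgeR 4.0.16 in R 4.3.3 (quasi-likelihood, time as the only term). The standard error is the log2FC divided by the square root of F. Alternatives were limma-voom (limma 3.58.1), DESeq2 1.42.0, RLE, library size alone, a CPM above 2, no filter, the replicate number as a block, removal of a loess trend with mean log2-CPM, other thresholds, and leaving out each library.

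Described in full were 9 central members and, in each role, the 3 largest changes among called genes without overlap and with a mean normalized count of 100 or more; also named were the 5 members nearest 0 and the 2 largest called changes of each related list. Members and lists were chosen with earlier results of these data known. The fit was tested on simulated data. The biological coefficient of variation was 6.52%. Exons of 16 members overlap those of another listed gene, snoRNA and miRNA genes aside. Protein sequences were not used here.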

Additional observations from a re-analysis of the deposited data

How the results depend on the processing

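Over the alternatives, 139 of 176 recomputed counts and medians stayed within their limits, 1.5 times for counts and the replicate spread for medians. Of 216 recomputed values of the 18 genes described in full, 192 kept direction and call, 17 lost the call, 2 gained it (NCL) and 5 changed sign. Those 5 were RRN3 (−0.0689 with library size alone) and POLR1A (−0.0912 with library size alone), with log2FC from −0.06 to 0.14 and from −0.11 to 0.14 when a library was left out. None of the called genes changed sign. Of 360 recomputed values of the related lists, 243 stayed within the same limits. The cause of the moves was not tested.

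DESeq2 gave 6 members lower and, over all genes, 1503 lower. An adjusted p below 0.01 gave 5 members lower and 1536 of all genes lower. WDR43 was no DEG (0 members) with library size alone or with glmTreat, which tests against a log2FC of 1 and gave 26 genes higher and 58 lower overall. Library size alone moved the medians to −0.0935 (all members), −0.0801 (polymerase I), −0.43 (snoRNP), −0.0882 (small subunit), −0.0371 (large subunit) and −0.0617 (other), as it moved all genes by about the same. A CPM above 2 gave a median of 0.0038 over members. With the abundance trend removed, the medians were 0.076 (small subunit) and 0.0098 (large subunit).

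Leaving out single libraries gave 6 to 11 members higher, 6 to 9 lower, 0 to 1 DEG, and over all genes 1605 to 2534 higher and 1509 to 2294 lower, where the fits have fewer samples. The medians ranged from −0.0159 to 0.0353 (all members), 0.0266 to 0.0898 (polymerase I), −0.34 to −0.29 (snoRNP), −0.0312 to 0.13 (small subunit), 0.038 to 0.0927 (large subunit) and −0.043 to 0.13 (other). The replicate block gave 13 members higher and 11 lower, with 1 DEG. Deviations of same-numbered libraries correlated at 0.05 over all genes, so the numbers were not taken as pairs. At this depth a gene near 10 CPM, such as UTP15, has a wide interval (95% interval of log2FC −0.46 to 0.41).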
